A study of Homo sapiens with 6 samples.

Results

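The mRNAs that encode the subunits of RNA polymerase II and of Mediator were compared between curcumol-treated and control ACHN cells. Members were the genes whose name in the deposited count table was MED followed by a number, with or without a final L, or POLR2 followed by a letter from A to M. There were 43 such genes among the 58735 in the table, of which 30 were Mediator genes and 13 were RNA polymerase II genes. ACHN, a long-used human kidney cancer line, is labelled clear cell renal cell carcinoma with a wild-type genotype, and curcumol is a sesquiterpenoid from Curcuma rhizomes. There were 3 libraries of curcumol-treated cells and 3 of control cells, described as independent biological replicates. The sample labels call the control a vehicle control, whereas the design text describes it as untreated, so whether it held a solvent is open to doubt. The labels state neither the dose nor the length of exposure.

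RNA polymerase II makes all mRNA, and its subunits form a catalytic core, a stalk and a set of small subunits that it shares with RNA polymerases I and III. Mediator is the large coactivator complex that carries signals from DNA-bound transcription factors to the polymerase at promoters. Its head and middle modules contact the polymerase, its tail receives activators, MED14 is the scaffold that joins these modules, and a dissociable kinase module with CDK8 or CDK19 controls whether the core can bind the polymerase. MED27, MED28, MED29 and MED30 lie where head and tail meet and have been placed in either one.

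The libraries held 16962012 to 17827433 counts, and 15160 genes passed the filter on low counts. All 43 members were among them. Levels are given as CPM, counts scaled to library size with TMM factors. Over all genes tested, 79.7% were called with edgeR at an adjusted p under 0.05, with 39.4% higher and 40.3% lower in curcumol, so most genes of any kind were called. Of the 9 renal epithelial markers, PAX8, a renal lineage transcription factor, averaged 60.1 ± 3.38 CPM in curcumol and 192 ± 4.49 CPM in control (SD, n = 3). Of the 8 that were tested, 7 were called lower and 1 higher. The latter was GGT1, with 149.9 ± 7.04 CPM in curcumol and 68.3 ± 5.27 CPM in control (SD, n = 3). The summed level of the list, most of it KRT8, VIM and KRT18, was 2869.7 to 3279 CPM in curcumol and 4052 to 4401 CPM in control. CA9, a marker typical of clear cell carcinoma, was near 0, at a mean of 0.105 CPM in curcumol and 0.0172 CPM in control. The 7 markers of other cell types summed to 3.39 to 8.85 CPM in curcumol and 4.80 to 5.43 CPM in control. CD3E was at 0 in every library. COL3A1, a fibroblast collagen, had 28, 58 and 23 counts in curcumol and 0 in every control library, and was called higher (edgeR adjusted p = 1.02e-07). PTPRC, which encodes the leukocyte marker CD45, had 5, 8 and 7 counts in curcumol and 0 in every control library, and PECAM1 had 1, 2 and 1 counts in curcumol and 0 in every control library. ALB had 5, 6 and 17 counts in curcumol and 0, 1 and 0 in control, with all curcumol libraries above all control libraries. COL1A1, the other collagen of the list, fell, with a mean of 2.25 CPM in curcumol and 4.98 CPM in control, so the overlapping sums of the list do not show the markers that were seen in curcumol libraries and not in control libraries. The part of these markers in the results below was not tested.

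Both complexes held subunits that rose and subunits that fell. Of the 30 Mediator genes, 15 rose, 12 fell and 3 did not pass, so that 90.0% were called, beside 79.7% of all genes tested. Of the 13 RNA polymerase II genes, 5 rose, 4 fell and 4 did not pass, so that 69.2% were called. Median log2 fold changes were 0.13 for Mediator and -0.06 for the polymerase, beside -0.02 over all genes tested. The Mediator subunits ran from -2.55 to 2.35 with an SD of 1.22 across genes, and the polymerase subunits from -1.14 to 1.09 with an SD of 0.63, beside an SD of 1.59 over all genes tested. Calls of at least 2-fold were made for 9 Mediator genes that rose and 5 that fell, and for 1 polymerase gene in each direction, beside 44.4% of all genes tested in either direction. The curcumol libraries lay all above the control libraries for 20 members and all below them for 16, which were the members called, beside 39.8% and 41.1% of all genes tested, or 81.0% together. In bulk RNA, fewer cells of a type and less RNA per cell cannot be told apart. Scaling by library totals in place of TMM moved the median of all genes to -0.28. Under it 13 Mediator genes rose and 14 fell, and 4 polymerase genes rose and 8 fell. With an offset for GC content, 14 Mediator genes rose and 13 fell, and 8 polymerase genes rose and 3 fell.

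**Figure D1:**
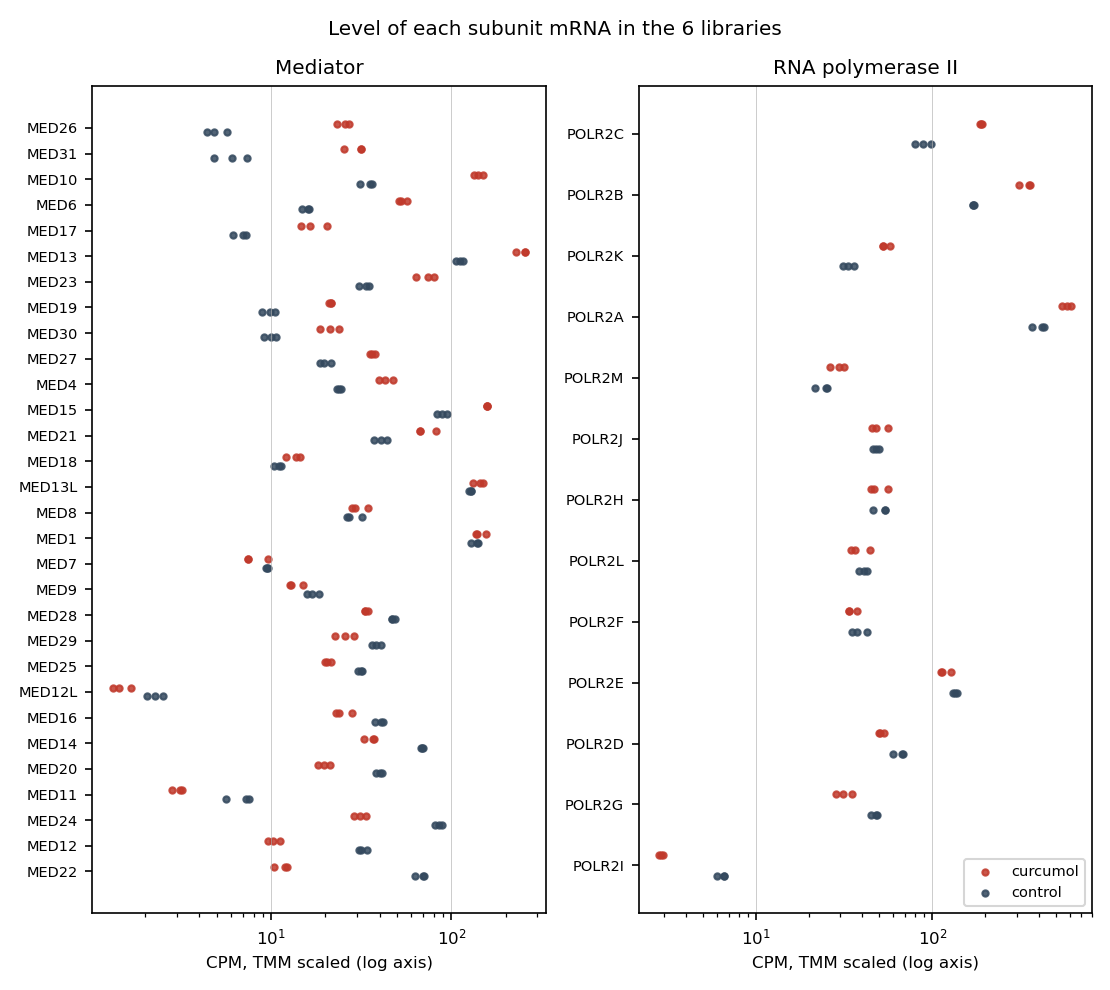
Level in CPM (TMM scaled, log axis) of each Mediator subunit (left) and RNA polymerase II subunit (right) in the 3 curcumol libraries (red, upper row of each gene) and the 3 control libraries (dark, lower row), ordered by fold change. MED26 at the top had 23.2 to 27.1 CPM in curcumol and 4.41 to 5.67 CPM in control, MED22 at the bottom 10.4 to 12.2 CPM in curcumol and 62.9 to 70.2 CPM in control, and POLR2A was the most abundant member on this scale.

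The middle module of Mediator held the 3 largest rises. Of its 9 genes, 6 rose (MED26, MED31, MED10, MED19, MED4 and MED21), MED9 fell and 2 did not pass, with a median log2 fold change of 0.86. That is 77.8% called, beside 79.7% of all genes tested, where 39.4% rose and 40.3% fell. With a GC offset the 6 that rose stood at 2.95, 1.78, 1.65, 1.21, 0.30 and 0.32, in the same order. They were still called higher, but the rises of MED4 and MED21 were much smaller. MED26, the subunit that brings elongation complexes to the polymerase and whose binding is known to exclude the kinase module (ENSG00000105085, chromosome 19, 16574907 to 16629062, GRCh38), had 23.2, 27.1 and 25.6 CPM in curcumol and 4.41, 5.67 and 4.80 CPM in control. All curcumol libraries lay above all control libraries, and the log2 fold change was 2.35 ± 0.13 (SE; adjusted p = 3.08e-13, edgeR). Read-through genes that share up to 1448 exonic bases with MED26 on its own strand (AC008764.1 and AC008764.4) had means of at most 0.0848 CPM in either group. MED31, a small and highly conserved subunit (ENSG00000108590, chromosome 17, 6643315 to 6651634), had 31.6, 25.4 and 31.6 CPM in curcumol and 4.84, 6.09 and 7.33 CPM in control, without overlap of the groups, and changed by 2.27 ± 0.14 (SE; adjusted p = 1.76e-12, edgeR). TXNDC17, which lies on the other strand and covers 58.3% of the exonic bases of MED31, stood at -0.03 ± 0.08 (SE; adjusted p = 0.709, edgeR). MED10, a core subunit of the middle module (ENSG00000133398, chromosome 5, 6371881 to 6378594), had 134, 139.9 and 149 CPM in curcumol and 35.4, 31.2 and 36.4 CPM in control. Its groups did not overlap either, with a log2 fold change of 2.04 ± 0.08 (SE; adjusted p = 5.18e-16, edgeR), and per kilobase of joined exons it had the highest mean level of the Mediator genes in curcumol, at 74.9 CPM per kilobase, against 18.3 in control.

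MED19, MED4 and MED21 rose by smaller amounts, 1.13, 0.86 and 0.82 on the log2 scale. MED21 pairs with MED7 to form the hinge of the middle module, and MED7 had 9.67, 7.41 and 7.45 CPM in curcumol and 9.47, 9.60 and 9.39 CPM in control. The MED7 groups overlapped, and its log2 fold change of -0.21 ± 0.14 (SE; adjusted p = 0.174, edgeR) did not pass, though it did without curcumol replicate 1 (-0.35, edgeR adjusted p = 0.0434), with library totals (-0.48, edgeR adjusted p = 0.00427) and with a GC offset (-0.55, edgeR adjusted p = 0.00118). MED1, the main docking subunit for nuclear receptors (ENSG00000125686, chromosome 17, 39404285 to 39451286), had 138, 156 and 137 CPM in curcumol and 140.2, 139 and 129 CPM in control, overlapping ranges with a log2 fold change of 0.08 ± 0.07 (SE; adjusted p = 0.265, edgeR). MED1 stood at -0.18 with library totals (edgeR adjusted p = 0.0146) and at -0.13 with a GC offset (edgeR adjusted p = 0.0373), so its direction depended on the scaling. MED9 had 12.7, 12.9 and 15.03 CPM in curcumol and 16.9, 18.4 and 15.9 CPM in control and a log2 fold change of -0.34 ± 0.11 (SE; adjusted p = 0.0112, edgeR). It did not pass without control replicate 2 (-0.28, edgeR adjusted p = 0.0636) or with a GC offset (-0.08).

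Head subunits moved in opposite directions. Of 7 head genes, 3 rose (MED6, MED17 and MED18), 3 fell (MED22, MED11 and MED20) and MED8 did not pass, with a median of 0.11 and a range of -2.55 to 1.77. That is 85.7% called, beside 79.7% of all genes tested, where 39.4% rose and 40.3% fell. The largest fall of either complex was that of MED22 (ENSG00000148297, chromosome 9, 133338323 to 133348131), with 12.2, 10.4 and 11.9 CPM in curcumol and 70.2, 69.5 and 62.9 CPM in control. Every curcumol library was below every control library, with a log2 fold change of -2.55 ± 0.09 (SE; adjusted p = 4.51e-16, edgeR). MED11, which dimerises with MED22 in the head, was low, with 44, 50 and 51 counts in curcumol and 104, 147 and 140 in control, and its groups were likewise separate at 2.82, 3.14 and 3.22 CPM in curcumol and 5.60, 7.58 and 7.23 CPM in control. The log2 fold change of MED11 was -1.15 ± 0.19 (SE; adjusted p = 1.11e-05, edgeR). MED20, which pairs with MED18 in the movable jaw of the head, had 18.3, 19.7 and 21.3 CPM in curcumol and 38.2, 41.4 and 40.1 CPM in control and a log2 fold change of -1.01 ± 0.09 (SE; adjusted p = 1.45e-09, edgeR), again without overlap.

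MED6, which contacts both the head and the middle (ENSG00000133997, chromosome 14, 70581257 to 70600690), rose most in the head, with 56.7, 51.2 and 52.3 CPM in curcumol and 14.8, 15.99 and 16.2 CPM in control and a log2 fold change of 1.77 ± 0.09 (SE; adjusted p = 7.38e-14, edgeR). With a GC offset MED6 stood at 1.17, and its exons are 38.2% GC. MED17, the central architectural subunit of the head, had 16.5, 14.6 and 20.5 CPM in curcumol and 6.19, 7.22 and 6.97 CPM in control and rose by 1.34 ± 0.14 (SE; adjusted p = 1.78e-08, edgeR). For both genes all curcumol libraries were above all control libraries. MED18 had 13.8, 12.1 and 14.4 CPM in curcumol and 11.1, 10.4 and 11.3 CPM in control, a narrow separation with a log2 fold change of 0.30 ± 0.12 (SE; adjusted p = 0.0292, edgeR) that did not pass in 4 of the 6 fits that left out 1 library (edgeR adjusted p = 0.0609, 0.096, 0.065 and 0.0983 without control replicates 1 and 2 and curcumol replicates 1 and 3), nor with library totals (0.03). MED8 had 34.3, 28.1 and 29.4 CPM in curcumol and 26.96, 31.8 and 26.5 CPM in control, with overlapping groups and a log2 fold change of 0.11 ± 0.10 (SE; adjusted p = 0.339, edgeR), and stood at -0.16 with library totals.

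The scaffold gene MED14 (ENSG00000180182, chromosome X, 40648306 to 40735858) fell, with 32.9, 36.98 and 37.4 CPM in curcumol and 69.7, 68.97 and 67.98 CPM in control and a log2 fold change of -0.95 ± 0.08 (SE; adjusted p = 2.87e-10, edgeR). The curcumol libraries all lay below the control libraries. Of the 4 subunits between head and tail, MED27 (0.88) and MED30 (1.09) rose and MED29 (-0.58) and MED28 (-0.49) fell. With a GC offset they stood at 0.97, 0.55, -0.29 and -0.77, in the same order. All 4 had separate groups, beside 81.0% of all genes tested. FAM184B, which shares 3520 exonic bases with MED28 on the other strand, had means of 0.907 CPM in curcumol and 0.295 CPM in control, far below the 33.7 and 47.4 CPM of MED28.

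The tail had 2 genes that rose and 3 that fell among its 5. All 5 had separate groups, beside 81.0% of all genes tested. MED24 (ENSG00000008838, chromosome 17, 40019097 to 40061215), which with MED16 and MED23 forms a submodule of the tail, had 33.6, 31.3 and 28.9 CPM in curcumol and 88.2, 80.8 and 85.8 CPM in control, and fell, with a log2 fold change of -1.44 ± 0.08 (SE; adjusted p = 3.21e-13, edgeR). MED23, a subunit bound by the MAP kinase target ELK1, went the other way with 63.9, 73.9 and 79.6 CPM in curcumol and 30.7, 33.8 and 34.9 CPM in control and a log2 fold change of 1.13 ± 0.09 (SE; adjusted p = 1.2e-10, edgeR). MED15, a subunit bound by the sterol regulator SREBP, had 157, 158 and 158 CPM in curcumol and 94.3, 83.1 and 88.9 CPM in control, a rise of 0.83 ± 0.06 (SE; adjusted p = 1e-10, edgeR). MED16 had 28.1, 22.9 and 23.8 CPM in curcumol and 41.9, 40.9 and 37.8 CPM in control and a log2 fold change of -0.69 ± 0.09 (SE; adjusted p = 8.49e-07, edgeR). With a GC offset MED16 stood at 0.10 and did not pass (edgeR adjusted p = 0.272), and its exons are 64.9% GC, the highest of the members. MED25, which is contacted by viral and cellular activators, fell, with a log2 fold change of -0.60 ± 0.09 (SE; adjusted p = 3.2e-06, edgeR). With a GC offset MED25 stood at -0.19 (edgeR adjusted p = 0.0417), MED24 at -0.98, MED23 at 0.55 and MED15 at 1.39.

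**Figure D2:**
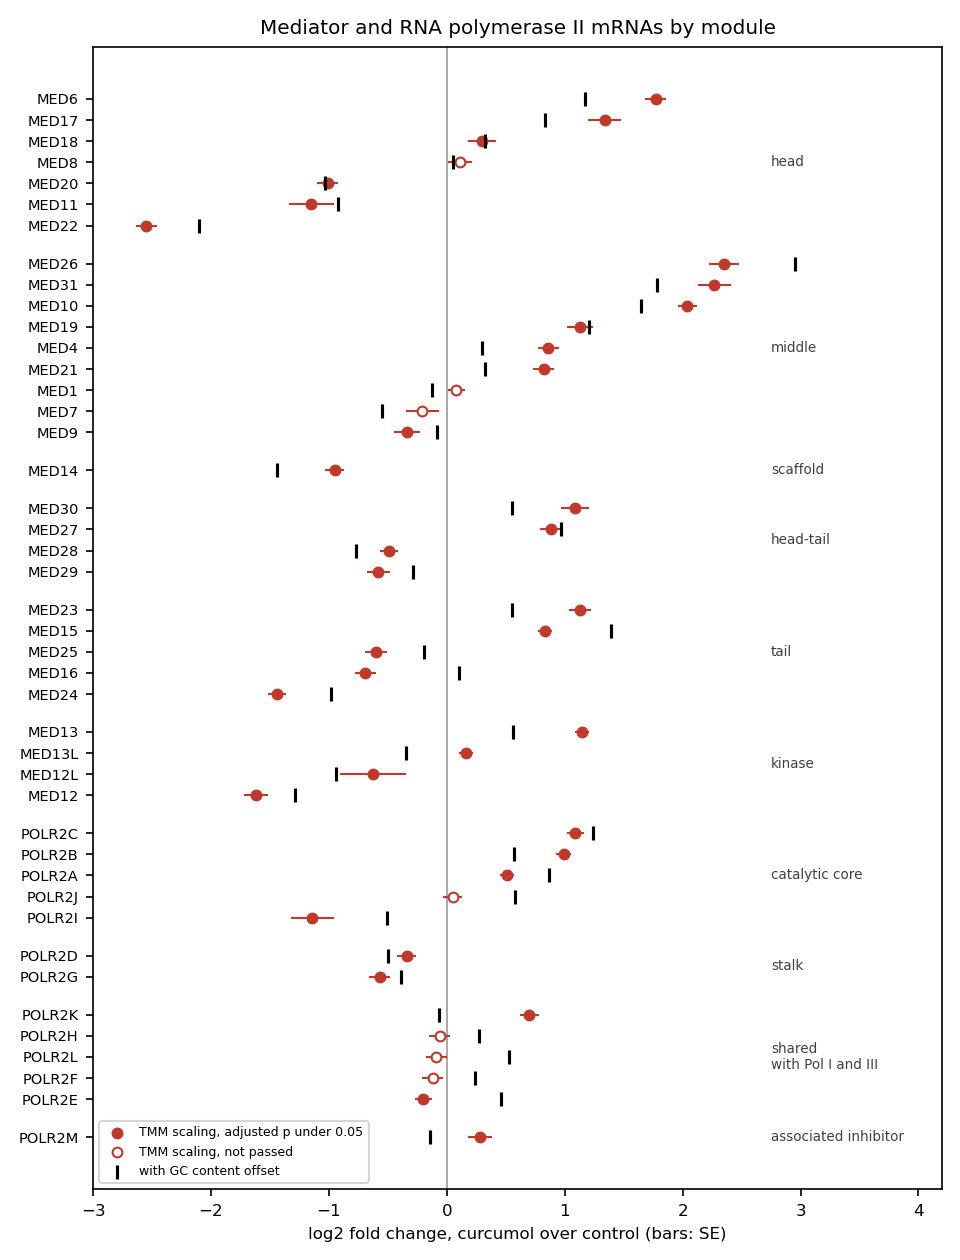
Log2 fold change (curcumol over control, SE bars) of the 43 members by module, with filled points for genes past an adjusted p of 0.05 and black ticks for the value with a GC content offset. The middle module holds the highest points (MED26, MED31 and MED10), and POLR2C, POLR2B and POLR2A stand right of 0 with and without the offset, whereas the 5 shared subunits and POLR2M change side.

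In the kinase module the scaffolding genes and their paralogs differed. MED12, which activates the kinase (ENSG00000184634, chromosome X, 71118556 to 71142454), had 9.67, 10.2 and 11.2 CPM in curcumol and 31.4, 33.9 and 30.6 CPM in control and fell, with a log2 fold change of -1.62 ± 0.10 (SE; adjusted p = 5.07e-12, edgeR). MED13, which links the module to the core (ENSG00000108510, chromosome 17, 61942605 to 62065282), had 227, 256 and 256 CPM in curcumol and 106, 112 and 116 CPM in control and rose by 1.15 ± 0.06 (SE; adjusted p = 4.47e-13, edgeR). Each was separated between the groups. With a GC offset MED12 stood at -1.29 and MED13 at 0.56. MED12L had few reads, 26, 23 and 21 counts in curcumol and 42, 40 and 49 in control, and 1.67, 1.44 and 1.33 CPM in curcumol and 2.26, 2.06 and 2.53 CPM in control. Its fall of -0.63 ± 0.28 (SE; adjusted p = 0.0465, edgeR) was close to the threshold, did not pass with DESeq2 (adjusted p = 0.118) and did not pass in 5 of the 6 fits that left out 1 library (edgeR adjusted p = 0.0763, 0.0538 and 0.124 without control replicates 1, 2 and 3, and 0.0894 and 0.116 without curcumol replicates 2 and 3). MED13L had 132, 150.3 and 144 CPM in curcumol and 129, 128 and 126 CPM in control. The groups were separate but close, and its log2 fold change of 0.16 ± 0.06 (SE; adjusted p = 0.0258, edgeR) did not pass in the fits without control replicates 1, 2 and 3 (edgeR adjusted p = 0.0734, 0.0616 and 0.0904) or curcumol replicates 2 and 3 (0.131 and 0.0502), stood at -0.11 with library totals and fell by 0.35 with a GC offset (edgeR adjusted p = 1.12e-06).

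Shares within a library need no scaling between libraries. MED13L took 36.8%, 37.0% and 36.0% of the summed MED13L and MED13 counts in curcumol, and 54.9%, 53.2% and 52.0% in control. The groups were far apart, with a mean of 36.6% ± 0.517 in curcumol and 53.4% ± 1.45 in control (SD, n = 3) and a difference of -16.8 percentage points (exact two-sided permutation test, p = 0.1, the smallest p that 3 libraries against 3 allow). MED12L took 14.7%, 12.4% and 10.6% of the MED12L and MED12 counts in curcumol, and 6.72%, 5.74% and 7.64% in control. That is a difference of 5.86 points in the other direction, with separate groups (exact two-sided permutation test, p = 0.1). Per exon length the difference was 3.74 points for MED12L and -11.6 points for MED13L. The exons of MED12L are 43.5% GC and those of MED12 54.7%. With a GC offset the log2 fold change of MED12L stood 0.35 above that of MED12, against 0.99 without it, and the SE of MED12L alone was 0.28. For MED13L the distance to MED13 was -0.91 with the offset and -0.99 without it. The kinase and cyclin genes of the module, which are not members by the rule, all rose, beside 39.4% of all genes tested. CDK8, a kinase, averaged 71.2 ± 2.74 CPM in curcumol and 37.7 ± 2.43 CPM in control (SD, n = 3), and its fold change was 0.92 ± 0.08 (SE) on the log2 scale. Its paralog CDK19 averaged 67.1 ± 3.61 CPM in curcumol and 33.6 ± 1.40 CPM in control (SD, n = 3), a change of 1.0 ± 0.08 (SE). Cyclin C, encoded by CCNC, averaged 131 ± 3.70 CPM in curcumol and 55.5 ± 2.52 CPM in control (SD, n = 3), a change of 1.24 ± 0.07 (SE).

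**Figure D3:**
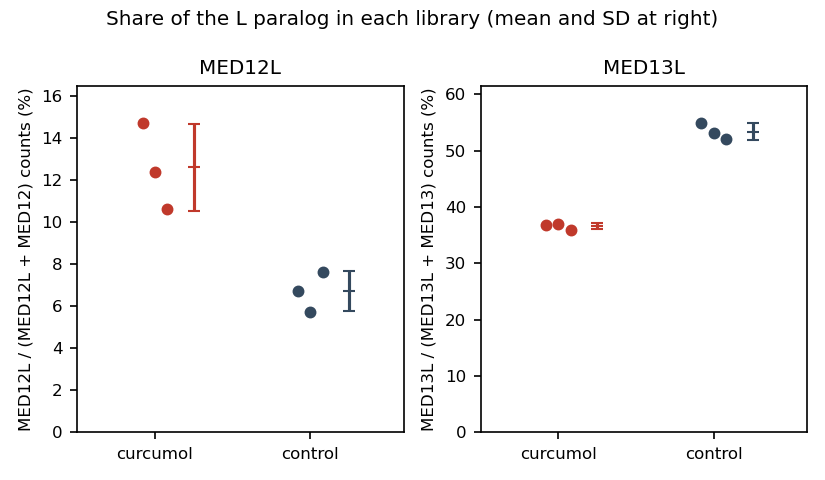
Share of the L paralog among the summed counts of each kinase module pair in the 3 curcumol and 3 control libraries (points), with mean and SD beside them. MED12L lies at 10.6% to 14.7% in curcumol and 5.74% to 7.64% in control, and MED13L at 36.0% to 37.0% in curcumol and 52.0% to 54.9% in control.

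The large subunits of RNA polymerase II rose. POLR2A, the largest and catalytic subunit, whose C-terminal repeats are phosphorylated during transcription (ENSG00000181222, chromosome 17, 7484366 to 7514616), had 614, 576 and 546 CPM in curcumol and 431, 419 and 366 CPM in control. All curcumol libraries were above all control libraries, with a log2 fold change of 0.51 ± 0.06 (SE; adjusted p = 2.29e-07, edgeR). POLR2B, which forms the active centre with it (ENSG00000047315, chromosome 4, 56977722 to 57031168), had 308, 357 and 355 CPM in curcumol and 173, 171 and 169 CPM in control and rose by 0.99 ± 0.06 (SE; adjusted p = 2.88e-12, edgeR). POLR2C, which pairs with POLR2J as the platform on which the enzyme assembles (ENSG00000102978, chromosome 16, 57462387 to 57472010), rose most of the polymerase genes, with 189.9, 187 and 189 CPM in curcumol and 87.9, 97.96 and 80.1 CPM in control and a log2 fold change of 1.09 ± 0.07 (SE; adjusted p = 3.81e-12, edgeR). POLR2B and POLR2C were as cleanly separated as POLR2A. With a GC offset POLR2A stood at 0.87, POLR2B at 0.57 and POLR2C at 1.24. The partner POLR2J had 55.9, 47.9 and 45.5 CPM in curcumol and 45.8, 49.99 and 48.1 CPM in control. Its groups overlapped, and its log2 fold change of 0.05 ± 0.08 (SE; adjusted p = 0.574, edgeR) turned to -0.21 with library totals, to -0.12 with an exon length offset and to -0.04 without curcumol replicate 1, and was 0.58 with a GC offset. POLR2J has near-identical copies, POLR2J2, POLR2J3 and POLR2J4, with which it may share reads. Of their 5 gene identifiers 4 fell and 1 rose, and their mean levels were at most 2.09 CPM in curcumol and 5.93 CPM in control.

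POLR2I, a small subunit known in yeast for its part in transcriptional fidelity, fell most of the polymerase genes. It had 45, 45 and 47 counts in curcumol and 123, 127 and 117 in control, and 2.88, 2.83 and 2.97 CPM in curcumol and 6.62, 6.55 and 6.04 CPM in control, without overlap of the groups and with a log2 fold change of -1.14 ± 0.18 (SE; adjusted p = 7.19e-06, edgeR). TBCB, which shares 417 exonic bases with it on the other strand, stood at -0.06 ± 0.08. The exons of POLR2I are 61.1% GC, and with a GC offset its log2 fold change was -0.51 (edgeR adjusted p = 0.0148), beside -0.50 for POLR2D. Both stalk genes fell, beside 40.3% of all genes tested. POLR2G had 34.9, 31.3 and 28.5 CPM in curcumol and 48.6, 47.8 and 44.6 CPM in control and a log2 fold change of -0.57 ± 0.09 (SE; adjusted p = 4e-06, edgeR). POLR2D had 50.6, 53.2 and 49.8 CPM in curcumol and 59.6, 67.7 and 67.5 CPM in control and a log2 fold change of -0.34 ± 0.08 (SE; adjusted p = 0.000336, edgeR). The groups were separate for both stalk genes, and the fall of POLR2D was not past a test against a 1.2-fold change (edgeR adjusted p = 0.0732).

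The 5 subunits shared by the 3 nuclear polymerases had mostly small changes, with a median of -0.09. POLR2K rose, with 57.5, 52.8 and 52.5 CPM in curcumol and 31.05, 33.1 and 36.03 CPM in control and a log2 fold change of 0.70 ± 0.08 (SE; adjusted p = 1.04e-07, edgeR), and stood at -0.07 with a GC offset (edgeR adjusted p = 0.425). Its exons are 34.2% GC, the lowest of the members. POLR2E had 128, 113 and 112 CPM in curcumol and 138, 131 and 135 CPM in control and a log2 fold change of -0.20 ± 0.07 (SE; adjusted p = 0.0085, edgeR), which did not pass without curcumol replicate 2 (-0.17, edgeR adjusted p = 0.0538) and was 0.46 with a GC offset (edgeR adjusted p = 6.75e-09). POLR2E was thus lower under one setting and higher under the other. POLR2H had 56.2, 45.1 and 46.7 CPM in curcumol and 54.1, 53.8 and 46.3 CPM in control. POLR2L had 44.5, 36.3 and 34.5 CPM in curcumol and 42.8, 38.6 and 41.2 CPM in control. POLR2F had 37.4, 33.8 and 33.8 CPM in curcumol and 42.4, 34.98 and 37.2 CPM in control. These 3 genes overlapped between the groups, with log2 fold changes of -0.06, -0.09 and -0.12 that did not pass. POLR2H stood at 0.01 without curcumol replicate 2, and POLR2L passed without curcumol replicate 1 (-0.21, edgeR adjusted p = 0.0326). All 3 were called lower with library totals (-0.32, -0.36 and -0.39 for POLR2H, POLR2L and POLR2F) and higher with a GC offset (0.27, 0.53 and 0.24). CD151, which covers 22.5% of the exonic bases of POLR2L on the other strand, fell by 0.60 on the log2 scale. POLR2M, also called Gdown1, binds the polymerase and makes its activity depend on Mediator. It had 29.5, 26.3 and 31.4 CPM in curcumol and 21.7, 25.1 and 24.9 CPM in control, a narrow separation with a log2 fold change of 0.28 ± 0.10 (SE; adjusted p = 0.012, edgeR). The call was lost without control replicate 1 (edgeR adjusted p = 0.0926) and without curcumol replicate 3 (0.0586), and the value was 0.02 when scaled by library totals and -0.14 with a GC offset.

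As a share of all counts, the polymerase subunits together took 0.140% to 0.145% in curcumol and 0.121% to 0.130% in control. POLR2A, POLR2B and POLR2C together took 0.10% to 0.102% in curcumol and 0.0678% to 0.0758% in control. The other 10 polymerase genes together took 0.0402% to 0.0447% in curcumol and 0.0532% to 0.0538% in control, so their share was lower. These shares use no TMM factors. With TMM scaling the summed levels of these 10 genes overlapped between the groups. Mediator subunits took 0.131% to 0.142% in curcumol and 0.131% in each control library. On the TMM scale the Mediator sums were 1459 to 1548 CPM in curcumol and 1186 to 1203 CPM in control. The sums of all polymerase subunits were 1527 to 1609.7 CPM in curcumol and 1103 to 1183 CPM in control. Per kilobase of joined exons, POLR2A had the highest mean of the polymerase genes in both groups, 69.3 ± 4.10 CPM per kilobase in curcumol and 48.5 ± 4.12 CPM per kilobase in control (SD, n = 3). POLR2B, with 57.7 ± 4.70 CPM per kilobase in curcumol and 29 ± 0.349 CPM per kilobase in control, was the second of the 13 in curcumol and the fourth in control. Joined exon length can exceed mRNA length, so these levels are a coarse guide.

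The fold changes of the members went with GC content, as those of all genes did. Spearman rho of log2 fold change with the GC content of the exons was -0.493 across the 43 members and -0.342 across 15154 genes, given as a description, since genes of the same libraries are not independent. Members that rose had a median of 40.9% GC and those that fell 53.4%. Over all genes tested the medians were 44.5% for those that rose and 52.5% for those that fell. With the GC offset rho was -0.0924 across the members. Members differed in this. MED26, with 60.3% GC, MED15 with 59.4% and POLR2A with 55.1% rose, and MED14, with 40.4%, fell. MED16, with 64.9%, and POLR2I, with 61.1%, fell, and POLR2K, with 34.2%, rose. With the offset MED26 stood at 2.95, MED15 at 1.39, POLR2A at 0.87 and MED14 at -1.44. MED16 then stood at 0.10, POLR2I at -0.51 and POLR2K at -0.07. The part of GC content in these changes was not tested.

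**Figure D4:**
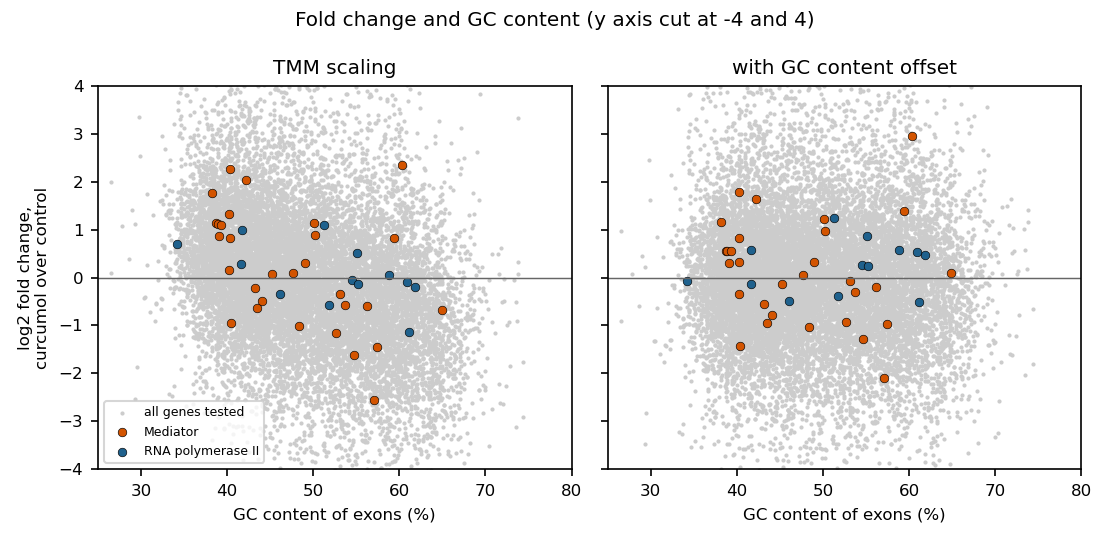
Log2 fold change (curcumol over control) against GC content of the exons for all genes tested (grey), Mediator genes (orange) and RNA polymerase II genes (blue), with TMM scaling (left) and with a GC content offset (right); genes beyond the axis limits are not drawn. Members with low GC lie mostly above 0 on the left (rho -0.493 across members), and on the right the slope is nearly gone (rho -0.0924).

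Promoter sequences of RefSeq (GRCh38.p14) were searched for 31 of the 43 members, as the 250 bases before the start of transcription that RefSeq lists. The remaining members, among them MED30 and POLR2K, which both rose, were not part of the search. The counts of member windows below therefore cover the 31 only. In the GENCODE 29 annotation 7 of these windows lay wholly inside their own gene, among them those of MED15, MED7, POLR2C and POLR2F, where other transcripts start further upstream. The windows of MED7 and POLR2C were wholly exonic in their own gene, and those of POLR2F and POLR2M were wholly covered by exons of the gene or of others. Such windows are annotated as transcribed as well as lying before a start. These windows had a median of 59.6% GC for the 15 members that rose and 58.4% for the 11 that fell. They were searched on both strands for 9 motifs chosen with the members' values known. The ETS site CCGGAAG was present in 7 of 31 member windows (22.6%), namely in 5 of the 15 that rose, in 0 of the 11 that fell and in 2 that did not pass. It was in 8.52% of all 35116 windows and in 15.65% of those of 10546 tested genes, with 17.48% for tested genes that rose and 14.45% for those that fell. The site is printed with its surroundings, since it was the motif most often found near the start of members that rose. Capitals mark CCGGAAG or its reverse complement CTTCCGG, and each sequence runs 5′ to 3′ on the strand of the gene.
MED15 (chr22:20507581-20507610, plus strand): cactgcggacggCTTCCGGgtttgggcctg
MED17 (chr11:93784228-93784257, plus strand): caccgtgattcaCCGGAAGcgctctaggga
MED18 (chr1:28329007-28329036, plus strand): gtcggcttccgaCCGGAAGtgagaagagga
MED31 (chr17:6651603-6651632, minus strand): agtgccccgggaCCGGAAGagggagccgtg
MED7 (chr5:157142862-157142891, minus strand): tcccggaggagaCCGGAAGttggtttcggc
POLR2C (chr16:57462642-57462671, plus strand): ctcgctgactgaCTTCCGGtgttggcggtg
POLR2F (chr22:37953646-37953675, plus strand): ctgtcctgcctcCCGGAAGtgatttcctct

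Heat shock elements, the binding sites of heat shock factors, are repeats of GAA in alternating orientation. A run of 3 units, TTCNNGAANNTTC or its reverse complement, was in the window of MED19 alone among the members, in 0.44% of all windows and in 0.30% of those of tested genes. A pair of units was in the windows of POLR2M (TTCNNGAA) and MED27 (GAANNTTC). The 2 pair motifs, which overlap the longer one in MED19, were in 2 of 31 member windows each. They were in 6.62% and 5.78% of all windows, and in 5.05% and 3.94% of those of tested genes. MED19 had 21.5, 21.6 and 21.03 CPM in curcumol and 9.90, 10.5 and 8.88 CPM in control and a log2 fold change of 1.13 ± 0.11 (SE; adjusted p = 6.51e-09, edgeR), with separate groups. MED27 had 35.4, 37.9 and 36.3 CPM in curcumol and 19.6, 21.4 and 18.6 CPM in control, also separate, with a log2 fold change of 0.88 ± 0.09 (SE; adjusted p = 1.5e-08, edgeR). Capitals mark the matched letters.
MED19 (chr11:57712335-57712364, minus strand): aaatagcacTTCCTGAACGTTCtcataagg
POLR2M (chr15:57706659-57706688, plus strand): tccgtgtttgtTTCCGGAAtttcaataaag
MED27 (chr9:132080073-132080102, minus strand): gggaaatgcggGAACTTTCtgtatttcttt
The remaining motifs were a CRE (TGACGTCA, 1 of 31), the core of an antioxidant response element (TGACNNNGC, 2), an E-box (CACGTG, 1), a CCAAT box (CCAAT, 8) and a TATA box (TATAAA, 3), beside 1.65%, 10.91%, 6.34%, 32.01% and 10.72% of all windows. Among the windows of tested genes the shares were 2.77%, 12.08%, 8.92%, 34.71% and 5.38%, in the same order. A match of letters is a description of the window and not evidence of binding.

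Genes that work with the polymerase also moved both ways. Of 18 tested general transcription factor genes of a list of 19, 9 rose and 4 fell (median 0.25). GTF2B, which encodes TFIIB, averaged 83.8 ± 5.40 CPM in curcumol and 16.8 ± 2.81 CPM in control (SD, n = 3), and its fold change was 2.32 ± 0.10 (SE) on the log2 scale. ERCC2, a helicase of TFIIH, averaged 8.80 ± 0.591 CPM in curcumol and 48.7 ± 1.74 CPM in control (SD, n = 3), a change of -2.47 ± 0.10 (SE). With a GC offset 8 of that list fell. Of 15 TFIID genes, 7 rose and 4 fell (median -0.03), with TAF13 at 2.94 and TAF10 at -1.19, and 8 fell with library totals. Of 13 tested elongation factor genes of a list of 14, 7 rose and 3 fell (median 0.27), with the PAF1 complex gene CTR9 at 1.74 and TCEA2 at -1.26. Assembly factors and phosphatases of the polymerase had 5 of 14 higher and 3 lower (median 0.09), or 5 lower without curcumol replicate 1, with the phosphatase genes CTDP1 at 1.36 and CTDSP1 at -2.49. Of 19 subunit genes of RNA polymerases I and III, 5 rose and 8 fell (median 0.03), with POLR3F at 1.77. The percentages called in these 5 lists ran from 57.1% to 76.9%, beside 79.7% of all genes tested.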

How the data were processed

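The authors deposited raw counts, not normalized, per Ensembl gene in 1 table for 6 libraries of poly(A)-selected RNA sequenced in pairs, per the labels' protocols. Per the submitters' processing notes the build was GRCh38 (hg38). Which aligner, counting tool and annotation were used, and whether strand was, is not given in the sources used here, so reads from exons that genes share cannot be assigned. All 58735 gene identifiers matched GENCODE 29 (GRCh38), which gave coordinates, exon overlaps, joined exon length and exon GC content. Samples were grouped by their titles. Replicates were not repeats of one library (chi-square per degree of freedom 3.58 to 8.58 between pairs of a group).

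Counts were filtered with filterByExpr, scaled with TMM and tested over 15160 genes by edgeR 4.0.16 in R 4.3.3 (glmQLFit, robust, and glmQLFTest); p-values were adjusted by Benjamini-Hochberg, with a threshold of 0.05. The common biological coefficient of variation was 0.0731. SE is the size of the log2 fold change over the root of F, and CPM are scaled by TMM factors. The code was tested on simulated data in which only a small part of the genes changed. That test does not cover scaling where most genes are called, as here. Groups are said not to overlap when all CPM of one lie above all of the other, as for 81.0% of genes tested. Alternatives were DESeq2 1.42.0, limma-voom (limma 3.58.1), other scalings, filters and thresholds, the replicate number as a block, each library left out in turn, and offsets for GC content or exon length (splines with 5 degrees of freedom per library).

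Members and lists were chosen with earlier results of these data known. Values per library were given for the 5 largest rises and falls past the threshold in each complex, POLR2A, the kinase module and members whose call or direction changed under an alternative, and for some others picked after their values were seen. From each other list the largest rise and the largest fall past the threshold were named, except 1 gene that is not reported here.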

Additional observations from a re-analysis of the deposited data

How the results depend on the processing

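Under the 17 alternatives, 27 of the 43 members kept their direction and their side of the threshold in every fit that tested them. Of 730 member values, 667 kept both and 16 changed sign. Among those that kept their sign, 38 lost the call and 9 gained one. Some of the 16 also lost a call, as POLR2K did with a GC offset, or gained one, as POLR2H did with that offset. With library totals MED1 stood at -0.18, MED13L at -0.11, POLR2J at -0.21 and MED8 at -0.16. With a GC offset MED1 stood at -0.13, POLR2E at 0.46, MED13L at -0.35, POLR2H at 0.27, POLR2K at -0.07, POLR2L at 0.53, POLR2F at 0.24, MED16 at 0.10 and POLR2M at -0.14. POLR2J stood at -0.12 with an exon length offset and from -0.04 to 0.12 over the fits without 1 library, and POLR2H stood at 0.01 without curcumol replicate 2. The polymerase genes called lower numbered 4 with TMM scaling, 8 with library totals and 2 against a 1.2-fold change, and those called higher 5, or 8 under the GC offset. Scaled by library totals, 8 TFIID genes, 7 assembly and phosphatase genes and 6 elongation factor genes were lower, and with a GC offset 8 general transcription factor, 5 assembly and phosphatase and 5 elongation factor genes. Leaving out 1 library gave 3 to 5 assembly and phosphatase genes lower. The filter at 1 CPM and 50 counts left 0 POLR2J copies higher and 1 lower, since fewer were tested, and did not test MED12L. The cause was not tested for the other shifts. Deviations from the group means correlated at 0.0238, -0.0123 and 0.0751 between curcumol and control libraries numbered 1, 2 and 3. Between libraries of unequal number they ran from -0.0761 to 0.0542. With 3 libraries a group, these values cannot decide whether libraries of equal number were prepared together. With the replicate block 12086 genes were called, against 12076 without it, and 11 Mediator genes fell, since MED12L did not pass (edgeR adjusted p = 0.0678); the other counts of members were equal. The MED12L and MED13L shares kept their direction without each library in turn and per exon length (3.74 points for MED12L, -11.6 for MED13L). With a GC offset, set after seeing the data for this comparison, the gap of MED12L over MED12 shrank to 0.35 log2, against 0.99, and that of MED13L over MED13 was -0.91, against -0.99. The GC offset moved the fold of 7 members by over 1.5 times (MED16, POLR2K, POLR2E, POLR2I, POLR2L, MED26 and MED6). Depth limits MED12L, MED11 and POLR2I, and 3 libraries a group limit the rest.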
